A study of Mus musculus with 10 samples.

Results

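The core circadian clock genes are described here in RNA-seq data of mouse neural retina after light damage. They were taken as the rows of the deposited gene table named *Arntl*, *Clock*, *Npas2*, *Per1*, *Per2*, *Per3*, *Cry1*, *Cry2*, *Nr1d1* and *Dbp*, and all 10 were found among its 54532 genes. The samples were retinas of BALB/c albino mice aged 2 months, and per the labels all mice spent 12 hr in the dark before the light. For the 5 LD retinas the light that followed was 15000 lux, and for the 5 NL retinas it was normal light of 200 lux. The labels give 1 day of light for both groups. The paper describes the 15000 lux as constant light and the housing as a light and dark photoperiod. The sources used here do not give the time of day at which a retina was taken, nor whether normal light was continuous. For these genes an effect of bright light therefore cannot be told apart from a different phase of the clock at harvest. The paper calls the retinas of a group biological replicates, but the labels do not say that each came from a separate mouse, so p-values measure the spread between these samples, which may in part be technical.

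The circadian clock is a feedback loop of transcription that runs in most cells, the cells of the retina included. BMAL1, the product of *Arntl*, pairs with CLOCK or its relative NPAS2 and activates genes through E-boxes, among them the *Per* and *Cry* genes, whose products then repress the pair. In a connected loop, REV-ERB alpha, the product of *Nr1d1*, represses *Arntl* while ROR proteins activate it from the same element, called RORE, and DBP drives further rhythmic genes through D-boxes. The retina has its own clock, which light sets and which is known for rhythms in dopamine, melatonin and photoreceptor sensitivity. Transcripts of *Arntl* and of *Nr1d1*, *Dbp* and the *Per* genes peak at different times of day.

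Between 18965090 and 26832535 reads per retina were counted on genes, as inferred from the deposited values. Expression was analysed as the deposited FPKM (fragments for each kilobase of exons, scaled by library size), and LD was compared with NL by limma on log2(FPKM + 0.1), with p-values adjusted by Benjamini-Hochberg over 24508 genes. The retinas were checked against markers of the tissue. The 5 rod markers (such as *Gnat1* and *Sag*) were expressed, with a summed level of 4112 to 4734 FPKM under NL and 604 to 1337 FPKM after LD. Cone markers summed to 288 to 449 FPKM under NL and 35.5 to 148 FPKM after LD, and the 5 markers of microglia to 15.4 to 26.0 FPKM and 28.7 to 71.7 FPKM. Muller glia markers summed to 1135 to 1359 FPKM under NL and 554 to 785 FPKM after LD. Endothelial markers summed to 32.7 to 43.5 FPKM under NL and 48.0 to 81.6 FPKM after LD. The sums of bipolar, amacrine, ganglion and pigment epithelium markers overlapped between the groups. Past an adjusted p of 0.01 and a fold change of 2, all 5 rod markers, 4 of 5 cone markers and 1 of 5 Muller glia markers were lower, 2 of 5 microglia markers were higher, and no bipolar, amacrine, ganglion, pigment epithelium or endothelial marker was called. At that adjusted p with no minimum fold change, 1 of 5 endothelial markers was higher. No marker of the 45 was at 0 in all retinas. In whole retina, fewer cells of a type and less RNA per cell cannot be told apart, and the part of the loss of rod and cone transcripts in the values below was not tested.

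The stretches of promoter below are of the 3 genes that fell after LD (*Arntl*, *Clock* and *Cry1*) and of *Cry2*, the closest relative of *Cry1*, which did not pass the test. Each is the 250 bases before a RefSeq start site on GRCm38.p6, written 5′ to 3′ on the strand of the gene. Capitals mark letters that match a pattern for a clock element on either strand: E-box CACGTG, E-prime box CACGTT, D-box TTATGNAA or RORE TNGGTCA. N stands for any base. The RORE pattern is loose, and a match need not be the element named above for *Arntl*. The *Arntl* stretch lies at chr7:113207215-113207464 on the plus strand, *Clock* at chr5:76304793-76305042, *Cry1* at chr10:85185055-85185304 and *Cry2* at chr2:92434070-92434319, all 3 on the minus strand.
Arntl: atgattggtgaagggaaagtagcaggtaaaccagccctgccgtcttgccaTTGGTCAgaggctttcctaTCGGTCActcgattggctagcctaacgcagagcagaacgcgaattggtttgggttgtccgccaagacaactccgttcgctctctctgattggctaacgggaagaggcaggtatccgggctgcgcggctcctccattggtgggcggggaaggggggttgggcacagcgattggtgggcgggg
Clock: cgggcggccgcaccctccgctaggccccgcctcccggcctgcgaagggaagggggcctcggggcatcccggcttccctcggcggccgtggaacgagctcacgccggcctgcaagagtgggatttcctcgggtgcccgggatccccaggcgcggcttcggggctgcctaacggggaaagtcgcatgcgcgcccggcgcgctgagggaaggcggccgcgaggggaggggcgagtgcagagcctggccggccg
Cry1: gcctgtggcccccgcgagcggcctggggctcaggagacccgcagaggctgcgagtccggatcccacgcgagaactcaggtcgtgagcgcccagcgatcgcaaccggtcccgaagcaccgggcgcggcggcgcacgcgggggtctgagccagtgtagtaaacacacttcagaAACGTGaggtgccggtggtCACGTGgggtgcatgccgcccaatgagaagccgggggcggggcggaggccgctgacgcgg
Cry2: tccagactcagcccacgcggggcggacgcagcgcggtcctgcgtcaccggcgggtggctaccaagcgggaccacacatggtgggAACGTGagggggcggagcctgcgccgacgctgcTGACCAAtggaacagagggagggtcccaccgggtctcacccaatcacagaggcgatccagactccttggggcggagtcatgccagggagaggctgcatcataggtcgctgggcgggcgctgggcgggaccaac
The *Arntl* stretch held 2 matches to the RORE pattern and no E-box. These were TTGGTCA at 200 to 194 and TCGGTCA at 181 to 175 bases before the start. In *Cry1* an E-box lay 60 to 55 bases before the start, next to an E-prime box at 79 to 74 bases. *Cry2* had an E-prime box and a match to the RORE pattern but no E-box, and the *Clock* stretch matched none of the 4 patterns. Of all 32851 promoters in the table, 6.02% held an E-box, 3.85% an E-prime box and 3.07% a D-box in the same 250 bases. The RORE pattern was matched in 9.19%. Start sites were given for 9 of the 10 genes (all but *Per2*), with 13 sites in all. For *Cry2* and *Nr1d1* the bases just after the start were not found in a GENCODE M21 transcript of these genes. On the minus strand the *Cry2* stretch stops at 92434070, short of the deposited gene, which begins at 92434043. The *Cry1* stretch runs to 85185055, into the deposited gene, which begins at 85185064. Some stretches not printed, such as that of *Dbp*, also reach into the deposited gene. By gene, 2 held an E-box (*Per1* and *Cry1*), 3 an E-prime box (*Cry1*, *Cry2* and *Nr1d1*) and 2 a D-box (*Per1* and *Per3*). The RORE pattern was matched in 3 (*Arntl*, *Per3* and *Cry2*). By site, as the shares of all promoters are counted, 2 of the 13 held an E-box, 3 an E-prime box and 2 a D-box. The RORE pattern was matched in 4 sites. The full cAMP response element TGACGTCA, present in 1.55% of promoters, was in none of the 13 sites. A match describes the letters in the window only, and binding of a protein there was not tested.

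All 10 clock genes were expressed in every retina. Per length of gene, the order of levels under NL was *Nr1d1* (62.6 ± 2.61 FPKM, SD, n = 5), *Dbp* (34.8 ± 2.32), *Cry2* (23.0 ± 0.747), *Per3* (21.0 ± 1.35), *Per1* (19.2 ± 1.02), *Cry1* (18.8 ± 0.591), *Clock* (13.5 ± 0.404), *Arntl* (13.5 ± 0.646), *Per2* (5.54 ± 0.204) and *Npas2* (0.991 ± 0.188). Neighbours overlapped in their ranges from *Cry2* to *Cry1* and between *Clock* and *Arntl*, and the other neighbours in this order did not. The order of means was the same after LD, where *Cry2* no longer overlapped *Per3*. *Npas2* rested on 80 to 144 reads per retina, while each of the other genes had at least 573.

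After LD, 3 of the 10 clock genes fell past an adjusted p of 0.01 and none rose, against 7.74% of all genes tested that were lower, 9.30% that were higher and 17.0% in either direction. No clock gene changed more than 2-fold at that p in limma, nor in limma-voom on the reads recovered from the FPKM, where 6.51% of all genes did in limma, 4.13% higher and 2.37% lower. At an unadjusted p under 0.05 with no minimum fold change 6 of the 10 passed, where 38.2% of all genes did, and 6 also at an adjusted p under 0.05, where 27.8% of all genes did. The log2 fold changes ran from -0.41 to 0.09 with a median of -0.18, beside a median of -0.012 over all genes tested. The median size of the change was 0.18 in the clock genes and 0.25 over all genes tested. Over those genes tested whose mean reached 1 FPKM it was 0.21, and 22.8% of them were past an adjusted p of 0.01 in either direction. In 4 clock genes all LD retinas were below all NL retinas, where 22.4% of all genes tested had no overlap in either direction and 10.6% had it with LD lower. In these 4 genes (*Arntl*, *Clock*, *Per3* and *Cry1*) the 2-sided exact permutation test gave 0.00794 before adjustment, the smallest p that 5 against 5 retinas allow, and in *Nr1d1* and *Per1* it gave 0.0159 and 0.0238.

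**Figure D1:**
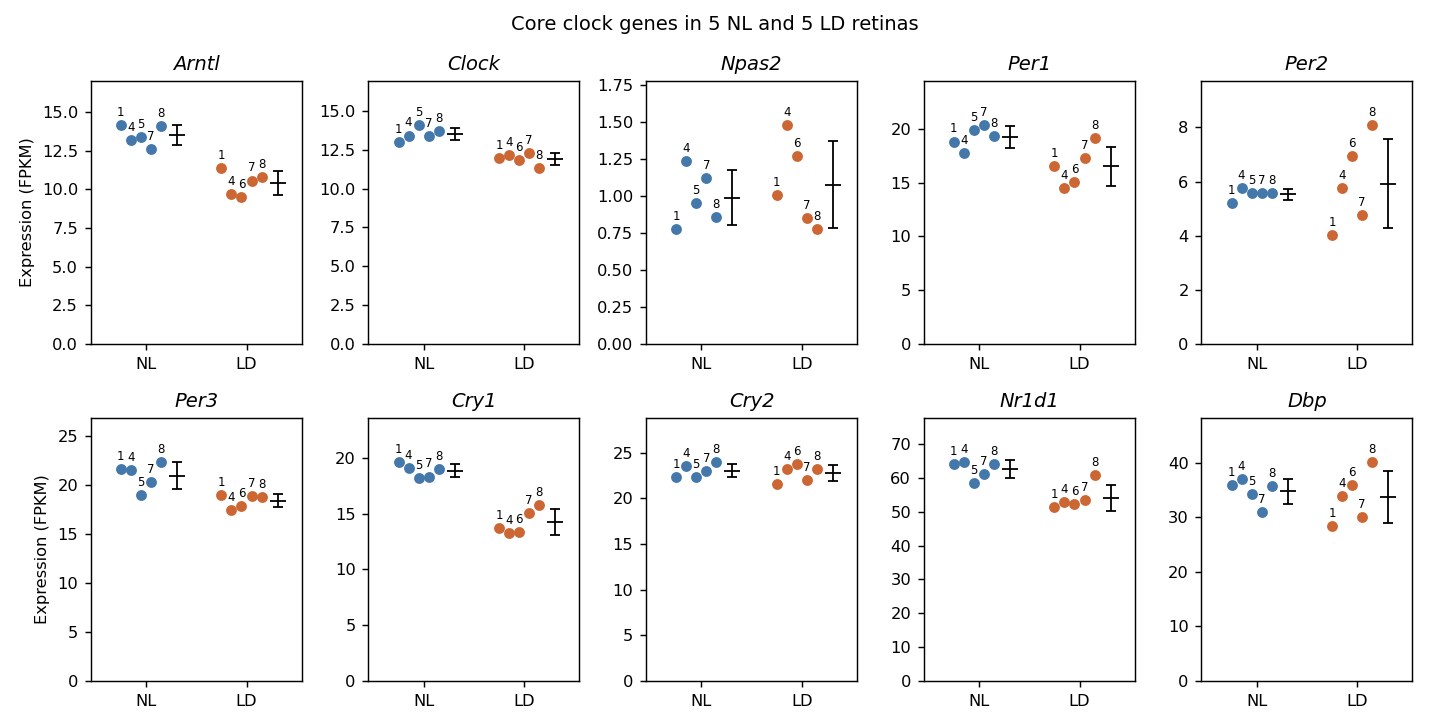
Expression in FPKM (linear axes from 0) of the 10 core clock genes in 5 NL and 5 LD retinas, with each retina as a point marked by its label number and the mean ± SD beside it. *Arntl*, *Clock*, *Per3* and *Cry1* show no overlap of the groups, and the LD retinas of *Per2* spread from 4.01 to 8.09 FPKM around NL retinas of 5.20 to 5.75 FPKM.

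Among the activators, *Arntl* (chromosome 7 from 113207465 to 113314126, GRCm38) encodes BMAL1, the partner shared by CLOCK and NPAS2. It was at 14.2, 13.2, 13.4, 12.6 and 14.1 FPKM in NL retinas 1, 4, 5, 7 and 8 and at 11.4, 9.72, 9.49, 10.6 and 10.8 FPKM in LD retinas 1, 4, 6, 7 and 8. Every LD retina was below every NL retina. The means were 13.5 ± 0.646 and 10.4 ± 0.773 FPKM (SD, n = 5 in each group), and the level fell by 23.0%, which is -0.38 as a log2 fold change (SE 0.058, limma adjusted p = 7.78e-04). *Clock*, on chromosome 5 from 76209868 to 76304792, encodes the other subunit of the activator. In the same order of retinas it was at 13.0, 13.4, 14.1, 13.4 and 13.7 FPKM under NL and at 12.0, 12.1, 11.8, 12.3 and 11.3 FPKM after LD. These groups did not overlap either, and the mean fell by 11.9%, or -0.18 on the log2 scale (SE 0.039, limma adjusted p = 0.00525). The call of *Clock* was lost in 13 of 22 other fits, with an adjusted p of 0.390 without the authors' factor per retina, and when NL-4, NL-5, NL-7, NL-8, LD-1, LD-6 or LD-8 was left out (adjusted p up to 0.0169).

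*Npas2*, on chromosome 1 from 39193731 to 39363236, encodes the relative that can stand in for CLOCK. It ranged from 0.781 to 1.24 FPKM under NL and from 0.778 to 1.48 FPKM after LD. The groups overlapped, with LD-4 and LD-6 above the NL range and LD-8 just below it, and the log2 fold change of 0.093 had a 95% interval of -0.34 to 0.53 (limma adjusted p = 0.772). The direction turned to -0.022 without LD-4, the highest retina.

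Of the repressors, *Cry1* (chromosome 10 from 85131700 to 85185064) and *Cry2* (chromosome 2 from 92403646 to 92434043) encode the cryptochromes, which bind and silence the activator pair. *Cry1* was at 19.7, 19.1, 18.2, 18.3 and 19.0 FPKM in NL retinas 1, 4, 5, 7 and 8 and at 13.7, 13.2, 13.4, 15.1 and 15.8 FPKM in LD retinas 1, 4, 6, 7 and 8. All LD values lay below all NL values, and the mean fell by 24.5%, the largest change among the 10 genes (-0.41 on the log2 scale, SE 0.055, limma adjusted p = 3.44e-04). *Cry2* was between 22.3 and 24.0 FPKM under NL and between 21.6 and 23.8 FPKM after LD. These ranges overlapped, and the log2 fold change of -0.018 had a 95% interval of -0.11 to 0.070. *Cry2* shares 295 exonic bases (4.67% of its exons) with *D930015M05Rik* on the opposite strand, whose mean was 2.85 ± 0.111 FPKM in NL and 3.03 ± 0.433 FPKM in LD retinas.

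The ratio of *Cry1* to *Cry2* within a retina does not depend on how the libraries were scaled. On the log2 scale it was -0.18, -0.31, -0.29, -0.33 and -0.34 in NL retinas 1, 4, 5, 7 and 8 and -0.66, -0.81, -0.83, -0.54 and -0.56 in LD retinas 1, 4, 6, 7 and 8. The ratio was thus lower in every LD retina than in any NL retina, by 0.39 in the mean.

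The *Per* genes encode the partners of the cryptochromes in the repressor complex, and *Per1* and *Per2* are also known as genes that light induces in the central clock. *Per1* (chromosome 11 from 69095217 to 69109960) was between 17.7 and 20.4 FPKM under NL and between 14.5 and 19.1 FPKM after LD, with -0.23 as the log2 fold change (limma adjusted p = 0.0446). LD-8 lay among the NL retinas, and the other 4 LD retinas were below all NL retinas. *Per3* (chromosome 4 from 151003652 to 151044665) was between 18.9 and 22.4 FPKM under NL and between 17.5 and 18.9 FPKM after LD. Its groups touched but did not overlap, with 18.943 FPKM in LD-1 against 18.948 FPKM in NL-5. For a log2 fold change of -0.19 the limma adjusted p was 0.0190, and it was 0.00655 without NL-5.

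*Per2*, on chromosome 1 from 91415982 to 91459324, was at 5.20, 5.75, 5.58, 5.58 and 5.59 FPKM in NL retinas 1, 4, 5, 7 and 8 and at 4.01, 5.77, 6.95, 4.77 and 8.09 FPKM in LD retinas 1, 4, 6, 7 and 8. No LD retina lay within the narrow NL range: LD-1 and LD-7 were below it and LD-4, LD-6 and LD-8 above. LD-4 was above it only by a near tie, with 5.769 FPKM against 5.748 FPKM in NL-4. The log2 fold change was 0.051, with a 95% interval of -0.31 to 0.41 and an adjusted p of 0.855 in limma, and it turned to -0.072 without LD-8 and to -0.017 without LD-6. The SD of the log2 values was 0.053 under NL and 0.40 after LD. Of all genes tested, 7.36% had a smaller SD than *Per2* under NL and 69.5% after LD.

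*Nr1d1*, on chromosome 11 from 98767932 to 98775333, encodes the repressor of *Arntl* named above. It was at 64.0, 64.8, 58.6, 61.3 and 64.2 FPKM in NL retinas 1, 4, 5, 7 and 8 and at 51.4, 52.8, 52.3, 53.5 and 60.8 FPKM in LD retinas 1, 4, 6, 7 and 8. All LD retinas except LD-8 were below the NL range. The log2 fold change was -0.21 with an SE of 0.054 (limma adjusted p = 0.0142), and without LD-8 it was -0.25 with an adjusted p of 0.00234. The exons of *Nr1d1* and of *Thra*, a thyroid hormone receptor gene on the opposite strand, share 263 bases (8.55% of the exons of *Nr1d1*), and the sources used here do not say whether strand was used in counting. For *Thra* the mean was 54.2 ± 3.94 FPKM in NL and 59.9 ± 6.40 FPKM in LD retinas (limma adjusted p = 0.214).

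*Dbp*, on chromosome 7 from 45705088 to 45710203, encodes the output factor that binds D-boxes. It was at 36.0, 36.9, 34.2, 31.0 and 35.8 FPKM in NL retinas 1, 4, 5, 7 and 8 and at 28.4, 33.9, 35.9, 30.1 and 40.2 FPKM in LD retinas 1, 4, 6, 7 and 8. LD-1 and LD-7 were below the NL retinas and LD-8 above. The log2 fold change of -0.054 had a 95% interval of -0.26 to 0.15 and an adjusted p of 0.715 in limma. Its exons share 539 bases (18.0%) with *Sphk2* on the opposite strand, whose mean was 4.84 ± 0.380 FPKM in NL and 5.39 ± 0.346 FPKM in LD retinas.

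Other genes lie over the clock genes with little or no shared exon. *Gm45355*, on the opposite strand of *Arntl*, shares 33 bases (0.439% of the exons of *Arntl*) and had means of 1.18 ± 0.750 FPKM in NL and 1.03 ± 0.342 FPKM in LD retinas. With no exonic base in common, *Per3* lies within *Camta1* (17.9 ± 1.44 and 16.7 ± 1.99 FPKM, limma adjusted p = 0.422), the pseudogene *Ube2n-ps1* (6.69 ± 1.13 and 7.69 ± 1.79 FPKM) and *Gm43658* (0.229 ± 0.10 and 0.174 ± 0.0674 FPKM) lie within *Clock*, and the pseudogenes *Gm20428* (0.201 ± 0.139 and 0.153 ± 0.178 FPKM) and *Gm3617* (0.102 ± 0.184 and 0.192 ± 0.133 FPKM) within *Npas2*.

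**Figure D2:**
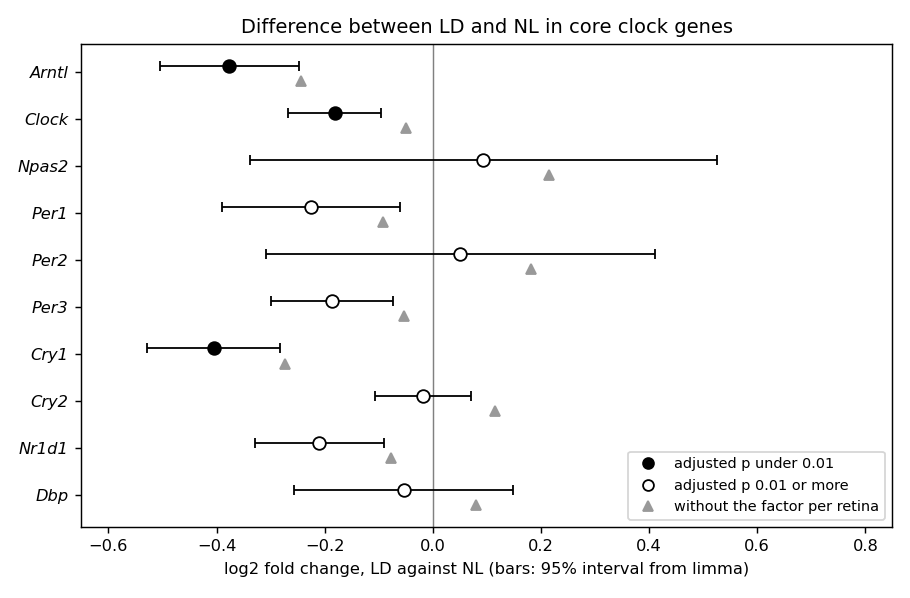
Log2 fold change of LD against NL for the 10 core clock genes from limma, with 95% intervals (circles, filled where the adjusted p is under 0.01), and the same value without the authors' factor per retina (triangles). *Arntl*, *Clock* and *Cry1* are filled and lie below 0, and every triangle lies to the right of its circle, with *Cry2* and *Dbp* on the other side of 0.

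The size of these changes makes the scaling of the libraries matter. By the recovered reads, the authors' values carry a factor per retina of 0.951 to 0.968 in NL and 1.041 to 1.069 in LD. Without this factor the median log2 fold change of all genes moved by 0.12, to 0.11. The log2 fold changes without it were -0.27 for *Cry1*, -0.24 for *Arntl* and -0.049 for *Clock*, and relative to the median of all genes -0.38, -0.35 and -0.16. *Arntl* and *Cry1* kept their direction in all 22 other fits and an adjusted p under 0.01 in 21 of them, the exception being the replicate block over 8 retinas.

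With 10 genes over 5 retinas per group, some genes must share the retina of their highest or lowest level. How often each retina was highest or lowest over all genes was not computed. LD-8 was the highest of the LD retinas in 5 of the 10 genes (*Per1*, *Per2*, *Cry1*, *Nr1d1* and *Dbp*), and LD-1 was the lowest in 4 (*Per2*, *Cry2*, *Nr1d1* and *Dbp*). LD-8 was at the same time the lowest in *Clock* and *Npas2*. Among the NL retinas, NL-4 was the highest in 4 genes and NL-5 the lowest in 4. The median SD of the log2 values over the 10 genes was 0.065 under NL and 0.11 after LD, beside 0.12 and 0.16 over those genes tested whose mean reached 1 FPKM.

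Ratios between clock genes within a retina varied among the LD retinas. The log2 ratio of *Arntl* to *Dbp* was between -1.48 and -1.30 in the NL retinas. In LD retinas 1 and 7 it was -1.32 and -1.51, and in LD retinas 4, 6 and 8 it was -1.80, -1.92 and -1.90. LD-1 thus lay within the NL range and the other 4 LD retinas below it. For *Arntl* to *Nr1d1* the log2 ratio was between -2.30 and -2.13 under NL, at -2.18 in LD-1 and between -2.49 and -2.34 in the other LD retinas. The log2 ratio of *Npas2* to *Per3*, at -4.42 ± 0.31 under NL and -4.13 ± 0.44 after LD (SD, n = 5 each), overlapped between the groups. With LD-1 and LD-7, LD-4 and LD-6, and NL-5 and NL-7 each averaged to 1 sample, pairs chosen for their likeness with earlier results of these data known, *Arntl* and *Cry1* remained past an adjusted p of 0.01 and *Clock* had an adjusted p of 0.0419.

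**Figure D3:**
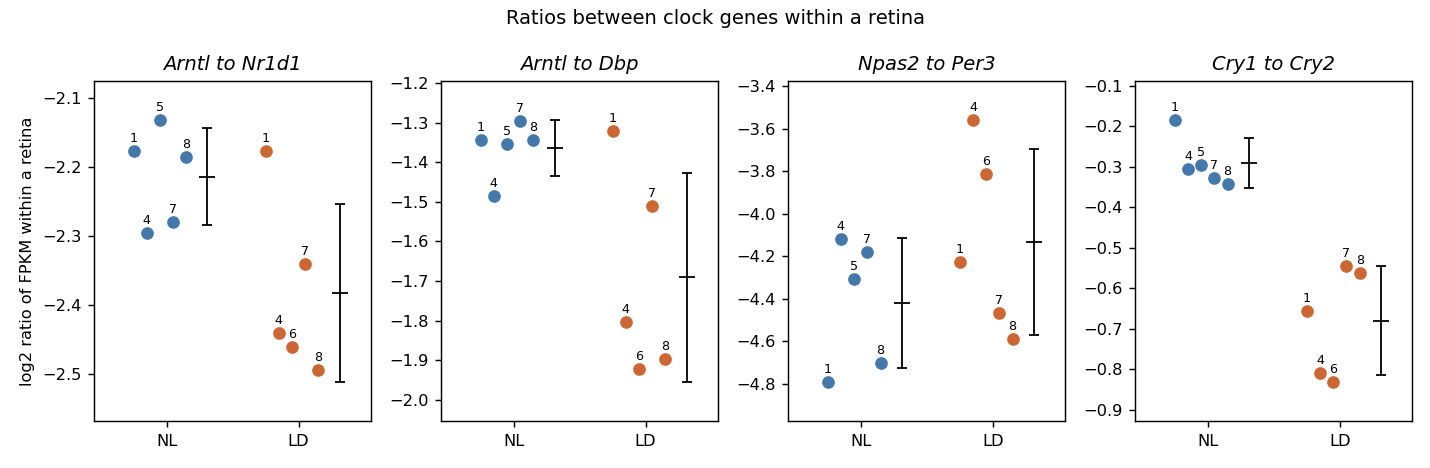
Log2 ratio of FPKM between 2 clock genes within each retina, for 5 NL and 5 LD retinas marked by label number, with mean ± SD beside the points (axes do not start at 0). In *Cry1* to *Cry2* all LD retinas lie below all NL retinas, and in *Arntl* to *Dbp* and *Arntl* to *Nr1d1* all LD retinas except LD-1 do.

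A wider list of 30 genes around the core clock (other loop members, kinases and ubiquitin ligases, outputs and light input) was tested in the same fit, and all 30 passed the filter on low values. Past an adjusted p of 0.01, 5 were higher and 6 lower after LD, and 1 was also past 2-fold, beside 9.30% and 7.74% of all genes higher and lower and 6.51% past both thresholds. The median size of the log2 fold change was 0.25 on the list, 0.25 over all genes tested and 0.21 over those whose mean reached 1 FPKM.

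The 3 genes of the REV-ERB and ROR loop on the list fell. *Nr1d2*, which encodes REV-ERB beta, fell from a mean of 47.5 ± 2.73 FPKM to 40.5 ± 1.94 FPKM (log2 fold change -0.23, limma adjusted p = 0.00686). *Rora*, the gene of an activator of *Arntl*, fell by 20.2% in its mean (log2 fold change -0.33, adjusted p = 0.00877). *Rorb*, a related receptor gene needed for photoreceptor development, fell by 23.3% (log2 fold change -0.38, adjusted p = 0.00714). In each of the 3 the LD retinas were all below the NL retinas, but the calls held in 7 (*Nr1d2* and *Rora*) and 8 (*Rorb*) of 22 other fits.

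Among the additional repressors, *Bhlhe40*, whose product DEC1 competes at E-boxes and which many stresses induce, rose from 12.8 ± 1.63 to 21.0 ± 2.92 FPKM (log2 fold change 0.70, limma adjusted p = 8.67e-04). *Timeless*, which in mammals serves mainly in DNA replication, rose from 2.55 ± 0.373 to 4.11 ± 0.273 FPKM (log2 fold change 0.68, limma adjusted p = 6.87e-04). The 2 others of this group did not pass the test, with *Bhlhe41* at -0.34 and *Ciart* at 0.13 on the log2 scale. Of the 7 kinase and ligase genes, *Btrc* and *Fbxw11*, which encode paralogous F-box proteins that target PER for degradation, went in opposite directions. *Btrc* fell from 14.6 ± 0.671 to 11.3 ± 0.587 FPKM (log2 fold change -0.36, adjusted p = 3.48e-04) and *Fbxw11* rose from 23.0 ± 1.26 to 30.9 ± 1.31 FPKM (log2 fold change 0.43, adjusted p = 8.88e-05). The other 5, casein kinase genes among them, did not pass the test. Nor did *Tef*, *Hlf* and *Nfil3*, the relatives and the antagonist of *Dbp*, which ran from -0.20 to 0.32 on the log2 scale, nor *Arntl2*, the paralog of *Arntl*, at -0.061.

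The largest change on the wider list was in *Drd4*, the gene of a dopamine receptor of photoreceptors whose transcript is rhythmic in the retina. It was at 47.7, 75.5, 66.3, 64.2 and 46.0 FPKM in NL retinas 1, 4, 5, 7 and 8 and at 22.6, 14.4, 15.7, 21.6 and 21.1 FPKM in LD retinas 1, 4, 6, 7 and 8. The groups did not overlap, with a log2 fold change of -1.64 and an SE of 0.17 (limma adjusted p = 5.54e-05), while the summed rod markers were also lower in every LD retina. *Nampt*, the gene of an enzyme of NAD synthesis, rose from 10.9 ± 0.433 to 21.0 ± 2.29 FPKM (log2 fold change 0.93, limma adjusted p = 7.66e-06). *Usp2*, a rhythmic deubiquitinase gene, fell by 29.2% (log2 fold change -0.50, adjusted p = 0.00473), a call that held in 10 of 22 other fits. *Aanat*, the gene of the enzyme that sets melatonin synthesis, had means of 0.417 ± 0.142 FPKM in NL and 0.619 ± 0.165 FPKM in LD retinas (limma adjusted p = 0.161). These values rest on only 9 to 27 reads per retina in NL and 13 to 34 in LD, too few to show whether *Aanat* changed. In the group for light input, *Crem*, which encodes cAMP-responsive factors, rose by 0.58 on the log2 scale (adjusted p = 0.00271), and the other 5, which include the melanopsin gene *Opn4* and *Sik1*, did not pass the test.

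**Figure D4:**
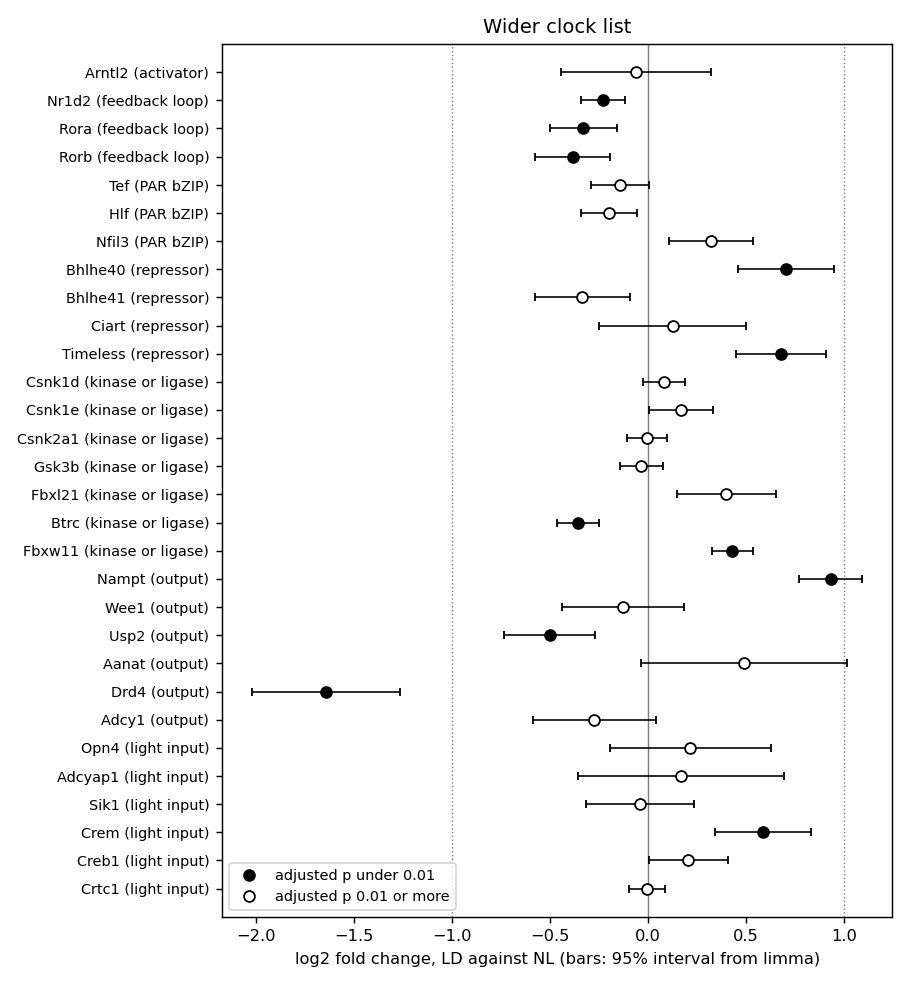
Log2 fold change of LD against NL with 95% intervals from limma for the 30 genes of the wider clock list, with the role of each in brackets, filled circles for an adjusted p under 0.01 and dotted lines at 2-fold. *Drd4*, at -1.64, is the only filled circle outside the dotted lines, and the 11 filled circles lie on both sides of 0.

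The genes with the profile most like *Arntl* over the 10 retinas, among 16233 genes that reached a mean of 1 FPKM under NL or LD, were *Rxra*, *Usp12* and *Atad2b* (Pearson r of log2 values 0.994, 0.992 and 0.992). Their log2 fold changes were -0.59, -0.49 and -0.86, so that the likeness includes the difference between the groups. For *Dbp* they were *Ppp5c*, *Vcpkmt* and *Zfp990* (r = 0.917, 0.905 and 0.904), with log2 fold changes of -0.014, -0.13 and 0.013. These correlations are the highest among many genes and describe the 10 retinas only.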

How the data were processed

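RNA-seq was done on 5 NL and 5 LD neural retinas, grouped and numbered as in the sample labels. Per the paper, RNA was extracted with TRIzol, reads were paired and of 150 bases, and a company normalized the data. The submitters' processing notes list Bowtie2 2.0.6, TopHat2 2.0.9 and the build mm8. The positions of the 10 genes equal those of GENCODE M21 on GRCm38, as do their lengths. The counting program is not given in the sources used here. The authors deposited FPKM values for 54532 genes. FPKM times gene length gave whole reads (within 0.001) for 100% of values, 21343389 to 26832535 in NL and 18965090 to 23378090 in LD, and the library size in the FPKM carries a factor per retina.

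The 24508 genes that reached 0.1 FPKM in 5 or more retinas were kept, and log2(FPKM + 0.1) was compared in limma 3.58.1 (R 4.3.3) with the trend option and no block, at the thresholds of the paper's text (adjusted p of 0.01, fold change of 2). Fold changes on this scale understate those of low genes. Plots were drawn with matplotlib 3.10.9 under Python 3.11.15. The model was tested on simulated data. The clock genes and both lists were chosen with earlier results of these data known, and 3 genes first on the lists (2 of the wider list and 1 marker) are not reported here and were left out of counts and sums over the lists. Named are the 10 genes, genes of the wider list past the adjusted p, genes that overlap a clock gene, and the 3 closest profiles of *Arntl* and *Dbp*, and other genes of the wider list were singled out after their values were seen. Alternatives changed the pseudocount, filter, scaling, trend, test, threshold, block and retinas, and reads served only for limma-voom. Promoter stretches are from RefSeq on GRCm38.p6.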

Additional observations from a re-analysis of the deposited data

Results flagged for a closer look

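The LD and NL values of the 10 clock genes and of the 11 wider genes past the adjusted p make 42 sets of 5 retinas, and in 2 of them 1 retina stood apart from its 4 neighbours (chance gives about 1 set in 20). *Nr1d1* reached 60.8 FPKM in LD-8, while LD-1, LD-4, LD-6 and LD-7 had 51.4 to 53.5 FPKM. *Nampt* reached 11.7 FPKM in NL-5, while NL-1, NL-4, NL-7 and NL-8 had 10.6 to 10.9 FPKM.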

How the results depend on the processing

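With the adjusted p under 0.05 and no minimum fold change, 6 clock genes, 15 genes of the wider list and 6818 of all genes passed, where at the thresholds used 0, 1 and 1595 did, and 6 in place of 3 clock genes were past the adjusted p. With a pseudocount of 1, 816 of all genes were called. The sources used here do not say whether the replicate numbers that both groups share (1, 4, 7 and 8) pair the retinas. The deviations of same-numbered retinas from their group means correlated at 0.06, 0.07, -0.03 and -0.08 over genes. Those of differently numbered retinas correlated at -0.07 to 0.11. Such weak correlations cannot settle whether same-numbered retinas share a mouse or a batch. With the shared numbers as a replicate block, 0 clock genes passed the adjusted p. In that fit 0 genes of the wider list and 808 of all genes were called. Without the block 1182 of all genes were called on the same 8 retinas. In TPM and without the factor per retina, 2 genes of the wider list were called, and *Cry2* (0.085 and 0.11) and *Dbp* (0.050 and 0.079) turned to a higher mean after LD, as both scalings move the median of all genes by 0.10 and 0.12. The wider list had 11 genes past the adjusted p, against 4 with the replicate block, 7 on the same 8 retinas without it, 5 with the alike retinas averaged and 7 without NL-1. *Per2* was at -0.014 on the 8 retinas, with or without the replicate block. Over the 10 fits that lack 1 retina, log2 fold changes ran between -0.072 and 0.18 for *Per2*, -0.022 and 0.19 for *Npas2*, -0.12 and 0.0054 for *Dbp*, -0.41 and -0.34 for *Arntl*, and -0.44 and -0.38 for *Cry1*. None of the 10 clock genes passed 2-fold at an adjusted p of 0.01 in any fit. Beyond the scalings, the cause of these changes was not tested. *Npas2*, at 80 to 144 reads per retina, had the fewest reads of the 10 clock genes.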
